A study of Mus musculus with 6 samples.

Results

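A set of 10 genes of the fat cell programme was followed in the cochlea of young and old mice, namely Pparg, Cebpa, Adipoq, Fabp4, Plin1, Plin4, Cidec, Cfd, Cd36 and Lpl. Pparg and Cebpa were taken because the study names them when it discusses the transcription factor Arid5b, and the other 8 because they are genes of fat cells that PPARγ and C/EBPα control. All 10 were in the table, among 25419 genes. C57BL/6 mice aged 1 month (young) or 12 months (old) were compared, in 3 samples per age, each of which pooled the tissue of 3 mice. The labels name no allele and no agent besides the strain, which is used as a model of age-related hearing loss. The basilar membrane was dissected from the cochlea, and RNA was sequenced from directional libraries. A value is given in FPKM (fragments scaled to transcript length and to library size), as the sum over the transcripts of a gene, and young 1 to 3 and old 1 to 3 are the 6 samples. As each value belongs to pooled mice, a p measures the spread between pools.

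PPARγ is a nuclear receptor that binds DNA together with a retinoid X receptor and is activated by fatty acids and their derivatives. C/EBPα is a leucine zipper transcription factor, and in fat cell differentiation each of them raises the expression of the other. Together they turn on genes for the capture, binding and storage of fat and for the hormones of the fat cell. Several of these genes also work outside fat: Lpl and Cd36 in macrophages, heart and muscle, Cd36 and Fabp4 in capillary endothelium, and Cebpa in the myeloid lineage.

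The upstream sequences of 4 members whose values are described below are shown first. They are the 250 bases before the annotated start of a transcript, 5′ to 3′ on the strand of the gene, from RefSeq on GRCm38.p6. Capitals mark matches, on either strand, to the TATA box, the CCAAT box or the half-site of nuclear receptors, whose letters follow the sequences. The first pair are the Pparg windows before the start of the short transcript Pparg-206 (chr6:115362099-115362348, plus strand) and before that of Pparg-201, whose coding sequence is the longest (chr6:115421816-115422065, plus strand). The others belong to Cebpa (chr7:35119043-35119292, plus strand), Adipoq (chr16:23146286-23146535, plus strand) and Plin4 (chr17:56109783-56110032, minus strand).
Pparg-206: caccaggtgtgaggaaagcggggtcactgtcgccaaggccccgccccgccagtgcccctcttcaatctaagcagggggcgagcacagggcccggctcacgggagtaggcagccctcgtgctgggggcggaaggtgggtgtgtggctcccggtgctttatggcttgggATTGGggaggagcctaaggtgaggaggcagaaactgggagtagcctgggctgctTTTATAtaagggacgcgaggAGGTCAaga
Pparg-201: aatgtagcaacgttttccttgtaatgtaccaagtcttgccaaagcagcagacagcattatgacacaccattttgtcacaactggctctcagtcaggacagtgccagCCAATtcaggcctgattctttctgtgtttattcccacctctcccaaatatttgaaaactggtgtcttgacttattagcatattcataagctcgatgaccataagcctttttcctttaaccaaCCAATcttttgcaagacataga
Cebpa: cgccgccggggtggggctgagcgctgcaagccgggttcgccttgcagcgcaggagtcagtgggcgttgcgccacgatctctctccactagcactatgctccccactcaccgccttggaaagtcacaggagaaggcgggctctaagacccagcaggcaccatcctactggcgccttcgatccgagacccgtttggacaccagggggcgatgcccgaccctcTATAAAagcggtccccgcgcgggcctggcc
Adipoq: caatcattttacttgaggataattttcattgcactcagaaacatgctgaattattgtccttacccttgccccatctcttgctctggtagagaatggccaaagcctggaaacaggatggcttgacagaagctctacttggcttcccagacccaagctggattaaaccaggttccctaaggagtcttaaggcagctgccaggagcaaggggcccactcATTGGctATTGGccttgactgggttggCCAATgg
Plin4: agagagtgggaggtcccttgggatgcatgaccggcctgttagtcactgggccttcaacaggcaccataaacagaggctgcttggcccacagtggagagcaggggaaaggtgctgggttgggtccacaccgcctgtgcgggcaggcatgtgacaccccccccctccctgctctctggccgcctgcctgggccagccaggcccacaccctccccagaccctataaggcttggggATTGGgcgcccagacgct

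RefSeq windows were at hand for 8 of the 10 members, with 11 windows in all, and not for Fabp4 and Lpl. TATAAA, the TATA box, was in 12.4% of all 32851 windows and, among the members, began 30 bases before the start of Cebpa and, on the opposite strand, 29 bases before that of Pparg-206. CCAAT was in 33.8% of all windows and was found upstream of Adipoq, Cd36, Plin4 and Pparg. AGGTCA, the half-site of nuclear receptors, was in 14.0% of all windows and was found upstream of Cd36 and Pparg. The direct repeat of that half-site with 1 base between the copies, which PPARγ binds with its partner, was in 0.0335% of all windows, and the C/EBP palindrome TTGCGCAA was in 0.164%. Neither was in a window of the members. A match is a description of the letters, not a site of binding.

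The labelled tissue was present in its markers, while most adipocyte markers were low. All 7 hair cell markers and all 7 supporting cell markers had a mean of at least 0.1 FPKM. Of the 9 adipocyte markers, Lep (leptin) was listed at 0 in all samples and 4, Lep included, had a mean under 0.1 FPKM. Their summed level was 11.4 to 13.2 FPKM in young and 11.5 to 13.8 FPKM in old samples, most of it from Lipe, the hormone-sensitive lipase, at 7.73 and 8.87 FPKM. The 4 brown adipocyte markers summed to 193 to 246 FPKM in young and 197 to 227 FPKM in old samples. Most of that sum was Cox8b, with means of 203 and 202 FPKM. Cidea, Ucp1 and Elovl3 had means over all samples of 7.48, 0.137 and 0.0392 FPKM. The smallest FPKM steps gave an estimated depth of 12280000 to 15410000 fragments per sample. Young 1 stood apart in granulocyte markers (433 FPKM in sum, against 11.6 and 27.4 in the other young samples) and bone markers (320 against 75.9 and 163), and old 1 in skeletal muscle markers (17.9 against 0.685 to 4.38 in the other 5 samples). In such bulk tissue, fewer cells of a type and less RNA per cell cannot be told apart.

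The 10 genes covered about 3 orders of magnitude. Plin4 was the most abundant at both ages, followed by Cebpa and then Lpl, and the ranges of these neighbours did not overlap within an age. Below Lpl the ranges of neighbours in the order overlapped, except between Cd36 and Pparg in old samples. The plot of all members by sample shows this order.

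**Figure D1:**
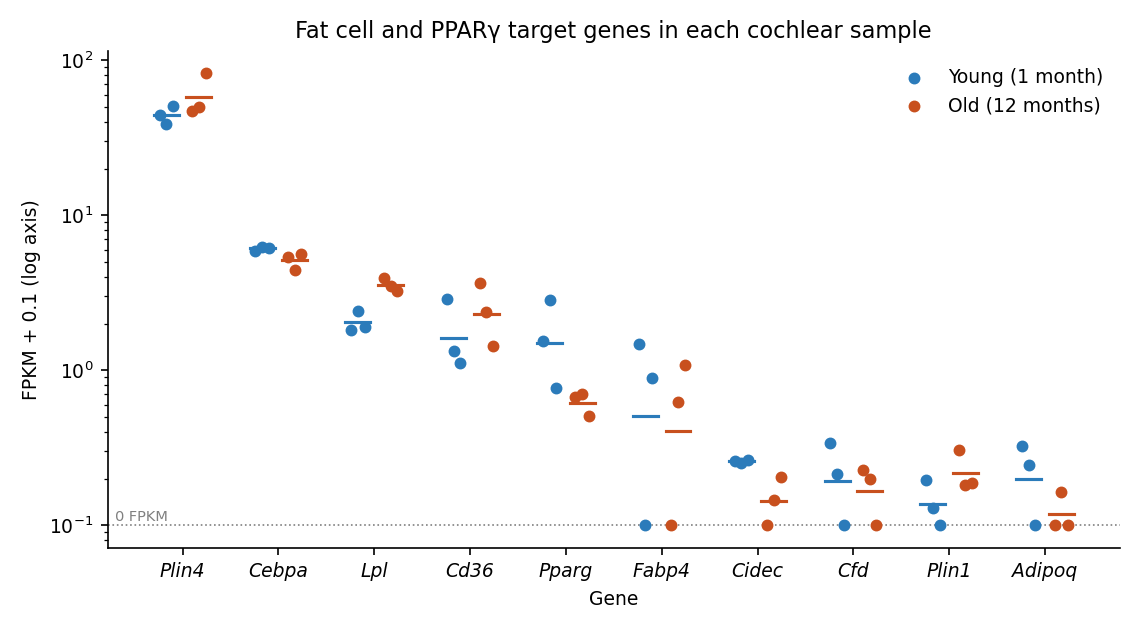
Summed FPKM + 0.1 on a log axis (y) of the 10 genes (x), ordered by mean, in 3 young (blue) and 3 old (orange) cochlear samples; points are samples, lines are means of the log values, and the dotted line is 0 FPKM. Lpl was the only gene with all old samples above all young samples, and Cidec, Cfd, Plin1 and Adipoq stayed close to the line of 0.

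Of the 10 members, 7 had a mean of at least 0.1 FPKM and were tested. Lpl was higher in old mice (limma on log2(FPKM + 0.1), Benjamini-Hochberg adjustment over the 19465 genes tested, threshold 0.05), and 0 members were lower. At an unadjusted p under 0.05, limma gave 1 lower member, Pparg, and 1 higher, Lpl. Among all genes tested, 5.65% were higher and 3.81% were lower, so that 1 higher member of 7 tested is not set apart from the background by its count. Every old sample exceeded every young sample for 1 member (Lpl), against 17.6% of all genes tested, and the reverse held for 3 (Pparg, Cebpa and Cidec), against 16.1%. Cidec passed the filter of 0.1 FPKM only through its young samples (mean 0.158 FPKM, against 0.0498 FPKM in old samples). Its place among the 3, and its test, are therefore not independent of the filter. The median log2 change of the 7, Cidec included, was -0.26, beside 0.01 for all genes. For the same reason this median is not independent of the filter, and no shift of the members is read from it. Adipoq, Plin1 and Cfd were under the filter and were not tested.

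**Figure D2:**
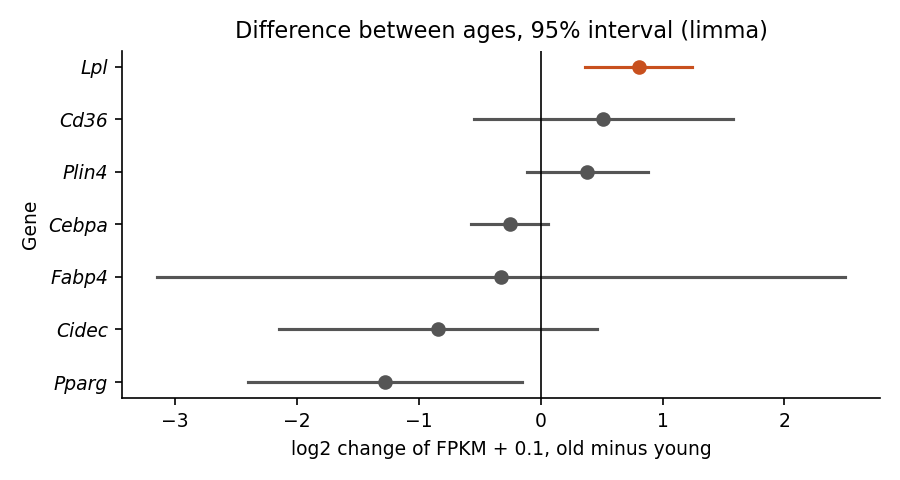
Log2 change of FPKM + 0.1, old minus young (x), of the 7 tested genes (y), with the 95% interval of the limma fit as a line; orange marks the gene that passed the adjusted threshold. The interval of Lpl, from 0.36 to 1.24, lay above 0, that of Pparg, from -2.40 to -0.15, lay below 0 before adjustment, and that of Fabp4 was the widest.

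Pparg (ENSMUSG00000000440, chromosome 6 from 115360951 to 115490399, plus strand) encodes PPARγ. Its FPKM was 1.44, 2.74 and 0.666 in young 1, 2 and 3 and 0.569, 0.6 and 0.405 in old 1, 2 and 3. Every old sample was below every young sample, and young 2 was the highest. The means were 1.62 ± 1.05 FPKM (SD, n = 3) and 0.525 ± 0.105 FPKM (SD, n = 3), a change of -1.28 in log2 (SE 0.48, limma adjusted p = 0.138), which did not pass the threshold. The exact permutation test gave p = 0.1, two-sided, the smallest that 3 samples against 3 allow.

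The lower sum rested on the shortest Pparg transcript, while the number of fragments was alike at both ages. Estimated fragments for Pparg were 10.2, 14.6 and 7.95 in the young samples and 9.91, 15.9 and 5.95 in the old samples, in total 32.7 and 31.8. Pparg-206, with 497 nt and the upstream window shown above, was at 0.592, 2.36 and 0.270 FPKM in young 1, 2 and 3 and at or next to 0 in the old samples. These values correspond to 1.70, 6.44 and 0.72 fragments, since 1 fragment on so short a transcript was worth 0.274 to 0.405 FPKM. It made up 86.1% of the Pparg sum in young 2, and 41.0% and 40.5% in young 1 and 3. With transcripts under 500 nt left out, a setting chosen after the data were seen, the log2 change of Pparg was 0.02 (SE 0.39, limma adjusted p = 0.981), and with those under 1000 nt left out it was 0.46 (SE 0.49, limma adjusted p = 0.554).

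The ages overlapped for each of the longer Pparg transcripts, and none passed. Pparg-201 encodes the longer protein, the form known from fat cells, with 505 codons, and was at 0, 0 and 0.396 FPKM in young and 0.521, 0.243 and 0 FPKM in old samples. Pparg-202, with 475 codons, was at 0.129, 0.298 and 0 FPKM in young and 0, 0.357 and 0.173 FPKM in old samples. The assignment of few fragments moved between these 2 forms from sample to sample within each age. Pparg-207, a form with 222 codons, was at 0.721, 0.0835 and 0 FPKM in young and 0.0471, 0 and 0.231 FPKM in old samples, and Pparg-204 was near 0 in all samples. The transcript Pparg-206 had an unadjusted p of 0.00745 and an adjusted p of 0.126 in the limma fit over transcripts. Gm44079 overlaps Pparg on the other strand and has no values in the table.

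**Figure D3:**
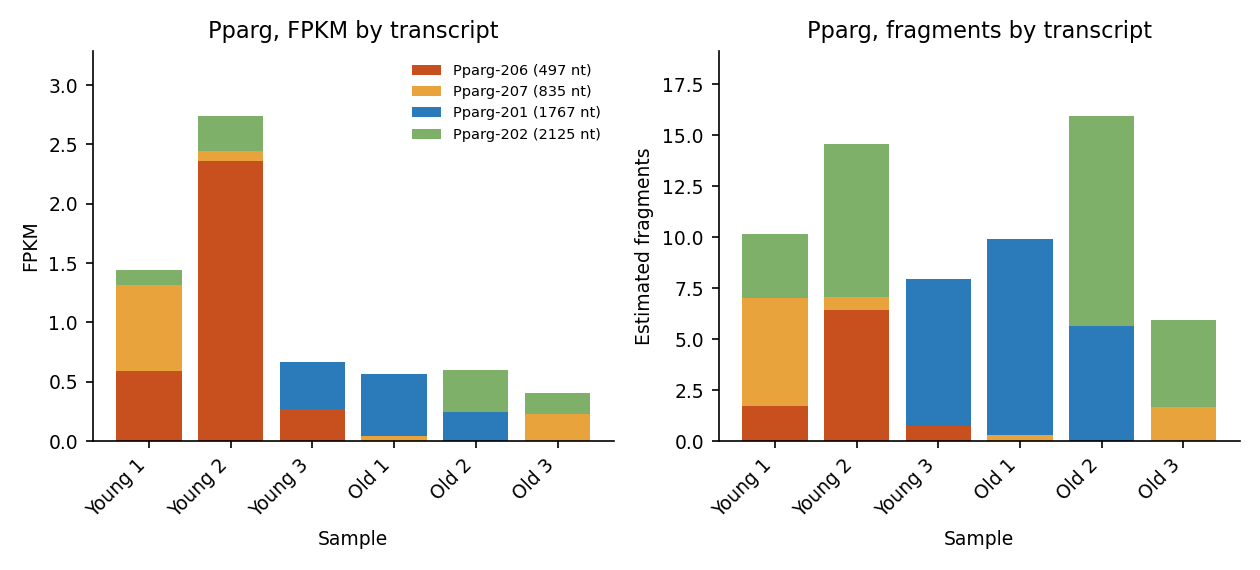
Pparg in each sample (x) as stacked bars by transcript, in FPKM (left, y) and in estimated fragments (right, y). The tall FPKM bar of young 2 is mostly Pparg-206 (2.36 of 2.74 FPKM), while the fragment totals of the ages were alike at 32.7 and 31.8.

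Cebpa (ENSMUSG00000034957, chromosome 7 from 35119293 to 35121928, plus strand) encodes C/EBPα and rests on more fragments, 549 in the young and 486 in the old samples. Its FPKM was 5.79, 6.17 and 6.08 in the young samples and 5.31, 4.35 and 5.48 in the old samples. Every old sample was below every young sample, with old 2 the lowest. The means were 6.01 ± 0.198 and 5.04 ± 0.610 FPKM (SD, n = 3 each), a change of -0.26 in log2 (SE 0.13, 95% interval from -0.57 to 0.06, limma adjusted p = 0.262). The exact permutation p was 0.1. Nearly all of the sum was the intronless transcript Cebpa-201. The spliced Cebpa-202 had 0.755 FPKM in young 3 and was at 0 in the other samples, and for Cebpa-201 alone the ages overlapped. The antisense gene Gm45091 overlaps the start of Cebpa and was at 0 to 0.695 FPKM.

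Plin4 (ENSMUSG00000002831, chromosome 17 from 56100591 to 56109803, minus strand) encodes perilipin 4, which coats small, newly formed lipid droplets and is found in fat, heart and skeletal muscle. It stood apart from the other members in level, above 93.3% of all genes of the table. Its FPKM was 43.9, 38.8 and 50.7 in young 1, 2 and 3 and 47.2, 49.5 and 82.1 in old 1, 2 and 3. The ages overlapped, and old 3 was far above the other samples. The means were 44.5 ± 5.93 and 59.6 ± 19.5 FPKM (SD, n = 3 each), a change of 0.38 in log2 (SE 0.21, 95% interval from -0.11 to 0.88, limma adjusted p = 0.286). The level rested on 2930 to 6060 estimated fragments per sample, so that counting error was small. Its transcripts Plin4-201 and Plin4-202 differ by 1 nt in length (5755 and 5756 nt), and their separate values carry no further information. Hdgfl2, on the opposite strand, overlaps the end of Plin4 by a few bases and was at 17.4 to 20.5 FPKM.

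Plin1 and Cidec, which act on the large lipid droplet of fat cells, were at the limit of detection. Plin1 (ENSMUSG00000030546, chromosome 7 from 79720218 to 79732903, minus strand), perilipin 1, guards the droplet against lipases. It was at 0.0969, 0.0285 and 0 FPKM in young and 0.205, 0.0817 and 0.0878 FPKM in old samples, from 3.0 estimated fragments in all young and 8.94 in all old samples. The ages overlapped, and the exact permutation p was 0.3. Cidec (ENSMUSG00000030278, chromosome 6 from 113424634 to 113435760, minus strand) encodes a protein that fuses droplets into larger ones, and was at 0.160, 0.153 and 0.162 FPKM in young and 0, 0.0448 and 0.105 FPKM in old samples. Every old sample was below every young sample, but the values came from 3.01, 2.97 and 1.01 fragments in young and 0, 0.997 and 1.99 fragments in old samples. The log2 change was -0.85 (SE 0.56, limma adjusted p = 0.372). The value of young 3 came from 1.01 fragments of the short transcript Cidec-203 (785 nt), while that of young 1 came from 2.93 fragments of Cidec-201 (1703 nt).

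The secreted proteins of fat cells, Adipoq and Cfd, were also at the limit of detection. Adipoq (ENSMUSG00000022878, chromosome 16 from 23146536 to 23158028, plus strand), adiponectin, is among the most abundant transcripts of fat tissue. It was at 0.225, 0.144 and 0 FPKM in young and 0, 0.0631 and 0 FPKM in old samples. That is 4.99 estimated fragments in all young and 1.0 in all old samples. A count of 0 allows up to 3 fragments, or 0.241, 0.241 and 0.224 FPKM of Adipoq in young 3, old 1 and old 3, as counting error alone. Cfd (ENSMUSG00000061780, chromosome 10 from 79890853 to 79892655, plus strand), adipsin, is a protease of the alternative complement pathway. It was at 0.238, 0.114 and 0 FPKM in young and 0.127, 0.0995 and 0 FPKM in old samples, from 3.0 and 2.0 estimated fragments. For both genes the ages overlapped, and a difference between them was not detectable at this depth.

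Fabp4 (ENSMUSG00000062515, chromosome 3 from 10204088 to 10208576, minus strand), the fatty acid binding protein of fat cells, which also marks capillary endothelium, was detected in some samples of each age and not in others. It was at 1.37, 0 and 0.795 FPKM in young and 0, 0.519 and 0.978 FPKM in old samples. These values came from 17.2 estimated fragments in all young and 13 in all old samples. In young 2 and old 1, a count of 0 allows up to 3 fragments, or 0.364 and 0.402 FPKM, as counting error alone. The log2 change was -0.33 (SE 1.21, 95% interval from -3.15 to 2.50, limma adjusted p = 0.887). The interval is so wide that neither a large rise nor a large fall could be told from no change, and the sign turned when young 1, young 3 or old 1 was left out (0.44, 0.08 and 0.69).

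Lpl (ENSMUSG00000015568, chromosome 8 from 68880491 to 68907448, plus strand) encodes lipoprotein lipase, which releases fatty acids from circulating triglycerides at the capillary wall. Its FPKM was 1.73, 2.32 and 1.80 in young 1, 2 and 3 and 3.86, 3.39 and 3.13 in old 1, 2 and 3. Each old sample exceeded each young sample. The means were 1.95 ± 0.322 and 3.46 ± 0.368 FPKM (SD, n = 3 each), and Lpl rose 1.75-fold on the log2(FPKM + 0.1) scale (log2 change 0.80, SE 0.19, limma adjusted p = 0.0422). The exact permutation p was 0.1. The values came from 295 estimated fragments in the young and 547 in the old samples, all on the single Lpl transcript of the table, Lpl-201 (4115 nt). In the fit over transcripts, Lpl-201 had a limma adjusted p of 0.132. The call was close to the threshold: it was lost when any 1 of the 6 samples was left out, with limma adjusted p from 0.0859 to 0.145, while the log2 change stayed between 0.72 and 0.93.

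Cd36 (ENSMUSG00000002944, chromosome 5 from 17781690 to 17888801, minus strand), a membrane receptor that takes up fatty acids and oxidised lipoproteins, varied more within each age. It was at 2.78, 1.23 and 1.02 FPKM in young and 3.54, 2.29 and 1.33 FPKM in old samples. The ages overlapped, and the sample numbered 1 was the highest at both. The means were 1.68 ± 0.962 and 2.39 ± 1.11 FPKM (SD, n = 3 each), a change of 0.51 in log2 (SE 0.46, 95% interval from -0.55 to 1.58, limma adjusted p = 0.504). In estimated fragments it went from 57.1, 17.8 and 15.9 in young to 62.4, 81.2 and 42.9 in old samples. The short transcript Cd36-205 (702 nt) had the highest mean FPKM, at 1.25, 0.834 and 0.577 in young and 1.70, 0.232 and 0 in old samples, from 8.54 fragments at most. Cd36-203 (2677 nt), at 0, 0.399 and 0.433 FPKM in young and 0.467, 1.44 and 1.33 FPKM in old samples, was higher in every old sample. Its log2 change of 1.85 (SE 0.83) had a limma adjusted p of 0.321, and that of Cd36-205 alone was negative, at -1.28. With transcripts under 1000 nt left out, the sum of Cd36 gave 1.26 (limma adjusted p = 0.0913). Altogether 31 transcripts of the 10 members were in the table, 14 were tested, 0 passed limma with adjustment over all 38764 transcripts (0.748% of all transcripts passed), and 2 had an unadjusted p under 0.05, Lpl-201 and Pparg-206.

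Markers of macrophages, which also use Lpl and Cd36, rose, while those of endothelium, which uses Cd36 and Fabp4, did not pass. The summed level of the 10 macrophage markers was 181, 118 and 136 FPKM in young and 722, 666 and 651 FPKM in old samples. Of the 10, 7 were higher in old mice, beside 5.65% of all genes tested. Lyz2 had the smallest p, with a log2 change of 2.64 (limma adjusted p = 0.00163). Lyz2 passed in all 6 fits with 1 sample left out, while the other macrophage calls were lost without old 1, old 2 or old 3. The macrophage sum and Lpl were both higher in every old sample. Within the old samples they ran in the same order, but young 2 had the lowest macrophage sum and the highest Lpl of the young samples (118 and 2.32 FPKM). The part of macrophages in the Lpl result was not tested. The 10 endothelial markers summed to 165, 199 and 144 FPKM in young and 118, 147 and 159 FPKM in old samples, with 0 past the limma threshold, 3 lower at an unadjusted p under 0.05 and a median log2 change of -0.39. Their part in the values of Cd36 and Fabp4 was not tested. Of the bone, Schwann and hair cell markers 2, 3 and 2 were lower in old mice, beside 3.81% of all genes tested. Of the supporting cell markers 2 were higher, beside 5.65%. These calls too were lost without old 1, old 2 or old 3. Of the skeletal muscle, erythroid and granulocyte markers 0 passed in either direction (limma, with 1, 1 and 0 at an unadjusted p under 0.05).

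Several relatives of the members were more abundant than the fat cell forms, and of the 23 tested 3 rose and 0 fell, beside 5.65% higher and 3.81% lower over all genes. Cebpd and Cebpb encode C/EBPδ and C/EBPβ, which act early in fat cell differentiation, before Cebpa and Pparg, and also in the acute inflammatory response. Cebpd rose from 5.85, 3.21 and 3.38 FPKM to 14.0, 15.3 and 11.1 FPKM, a change of 1.72 in log2 (SE 0.24, limma adjusted p = 0.0143). Cebpb rose from 34.8, 21.2 and 22.2 FPKM to 85.7, 72.7 and 46.5 FPKM, a change of 1.38 in log2 (SE 0.26, limma adjusted p = 0.0259). Both are also expressed by macrophages, whose summed markers are given above, and the part of these cells was not tested. The third was Scarb2, a lysosomal relative of Cd36, with a mean of 72.4 FPKM in young and 87.9 FPKM in old samples (log2 change 0.28, limma adjusted p = 0.0342). Ppara was at 3.97 and 4.33 FPKM and Ppard at 4.56 and 4.21 FPKM on average, against 1.62 and 0.525 FPKM for Pparg.

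The relatives of Fabp4 and of the perilipins did not pass. Fabp3, the heart form, had means of 176 and 205 FPKM, against 0.720 and 0.499 FPKM for Fabp4. Fabp5 had means of 4.90 and 7.17 FPKM and Fabp7 of 10.4 and 8.60 FPKM. Plin3, which is found in most cells, had means of 73.2 and 91.9 FPKM (limma adjusted p = 0.0881), Plin2 of 16.2 and 15.8 FPKM, and Plin5 of 0.329 and 0.338 FPKM. Cidea had means of 7.78 and 7.18 FPKM and Cideb of 0.434 and 0.797 FPKM, against 0.158 and 0.0498 FPKM for Cidec. C1qtnf1, a relative of adiponectin, had means of 4.02 and 6.86 FPKM (limma adjusted p = 0.0537). The median log2 change of the 23 was -0.03.

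Among 20 other fat cell genes, 15 were tested, 1 rose and 0 fell in old mice, beside 5.65% and 3.81% over all genes. The median log2 change was 0.14. The higher one was Car3, carbonic anhydrase 3, abundant in fat and in slow muscle fibres, which went from 485, 349 and 381 FPKM to 1029, 889 and 771 FPKM (log2 change 1.15, SE 0.15, limma adjusted p = 0.0123). It did not pass without young 2, old 1, old 2 or old 3 (limma adjusted p up to 0.0844). The skeletal muscle markers, with 0 of 7 tested past the threshold, summed to 2.46, 2.78 and 0.685 FPKM in young and 17.9, 4.38 and 3.39 FPKM in old samples. These markers include none particular to slow fibres, and the part of muscle in the Car3 result was not tested. Gpd1, which makes the glycerol backbone of triglycerides, had means of 16 and 12.7 FPKM (limma adjusted p = 0.0920). Of 9 brown fat genes, 8 were tested and 0 passed with limma (2 at an unadjusted p under 0.05, Cox7a1 higher and Dio2 lower). Cox7a1 had means of 283 and 323 FPKM. Ucp1, the uncoupling protein that defines brown fat, was at 0.559, 0.0535 and 0.0595 FPKM in young and 0, 0.0941 and 0.0550 FPKM in old samples. The ages overlapped for Ucp1 (limma adjusted p = 0.525), and young 1 alone was far above the other samples.

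Of 22 other genes that PPARs control, 1 was not matched by its symbol and 18 were tested. Of those tested, 1 rose and 1 fell, beside 5.65% and 3.81% over all genes, with a median log2 change of 0.04. Acsl1, which activates long-chain fatty acids, rose from 48.4 to 67.4 FPKM (log2 change 0.48, limma adjusted p = 0.0203). Cpt1b, which passes them into mitochondria, fell from 25.4 to 18.8 FPKM (log2 change -0.43, limma adjusted p = 0.0259). Fabp3, Fabp5, Plin2 and Gpd1 are also in this list.

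Of 27 regulators of fat cell differentiation, all tested, 4 rose and 0 fell, beside 5.65% and 3.81% over all genes, with a median log2 change of 0.02. Besides Cebpb and Cebpd these were Srebf1, the factor that drives fatty acid synthesis, and Klf15. Srebf1 rose from 78.5, 75.9 and 95.6 FPKM to 179, 173 and 152 FPKM (log2 change 1.01, limma adjusted p = 0.00961), and Klf15 rose from 63.3, 42.0 and 46.2 FPKM to 80.6, 78.2 and 81.0 FPKM (log2 change 0.68, limma adjusted p = 0.0315). Arid5b is given here because the study cites work in fat cells that links it to Cebpa and Pparg. By RT-qPCR and Western blot the study reported more Arid5b RNA and protein in the old cochlea. In the samples sequenced, Arid5b was at 10.5, 9.05 and 8.85 FPKM in young and 12.2, 12.6 and 11.8 FPKM in old samples. Every old sample was above every young sample, and the log2 change of 0.37 did not pass (limma adjusted p = 0.0663). In the same samples the sums of Cebpa, and of Pparg with its short transcript, were lower in every old sample and did not pass either.

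Of 10 genes of fat synthesis, 1 rose and 0 fell, beside 5.65% and 3.81% over all genes, with a median log2 change of 0.16. It was Scd1, the desaturase that makes oleate, which rose from 162, 134 and 169 FPKM to 279, 252 and 250 FPKM (log2 change 0.75, limma adjusted p = 0.0124). Of 11 genes that Lpl works with, 10 were tested and 1 rose, beside 5.65% over all genes. This was Lrp1, a receptor for lipoprotein remnants (from 110 to 132 FPKM, log2 change 0.27, limma adjusted p = 0.0423). Angptl4, an inhibitor of Lpl that PPARs induce, had means of 5.32 and 3.22 FPKM (limma adjusted p = 0.183), and Vldlr of 16.3 and 21.9 FPKM (limma adjusted p = 0.0719). The receptors of adiponectin and leptin (4 genes), the alternative complement pathway (5 tested), fat progenitors (6 tested) and marrow stroma (5 tested) had 0 genes past the limma threshold in either direction. At an unadjusted p under 0.05, limma gave these lists 0, 2, 1 and 0 higher genes and 1, 0, 1 and 0 lower genes. Their median log2 changes were -0.06, -0.12, 0.09 and 0.04. Altogether 10 of the 101 different genes tested in the 7 lists around the fat cell programme passed. The 9 higher (8.91%) and 1 lower (0.99%) stand beside 5.65% and 3.81% over all genes, so that the count does not set these lists apart. Of the 10, 0 passed in the same fit without old 1, without old 2 or without old 3, where the whole table gave 5, 15 and 11 higher genes.

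**Figure D4:**
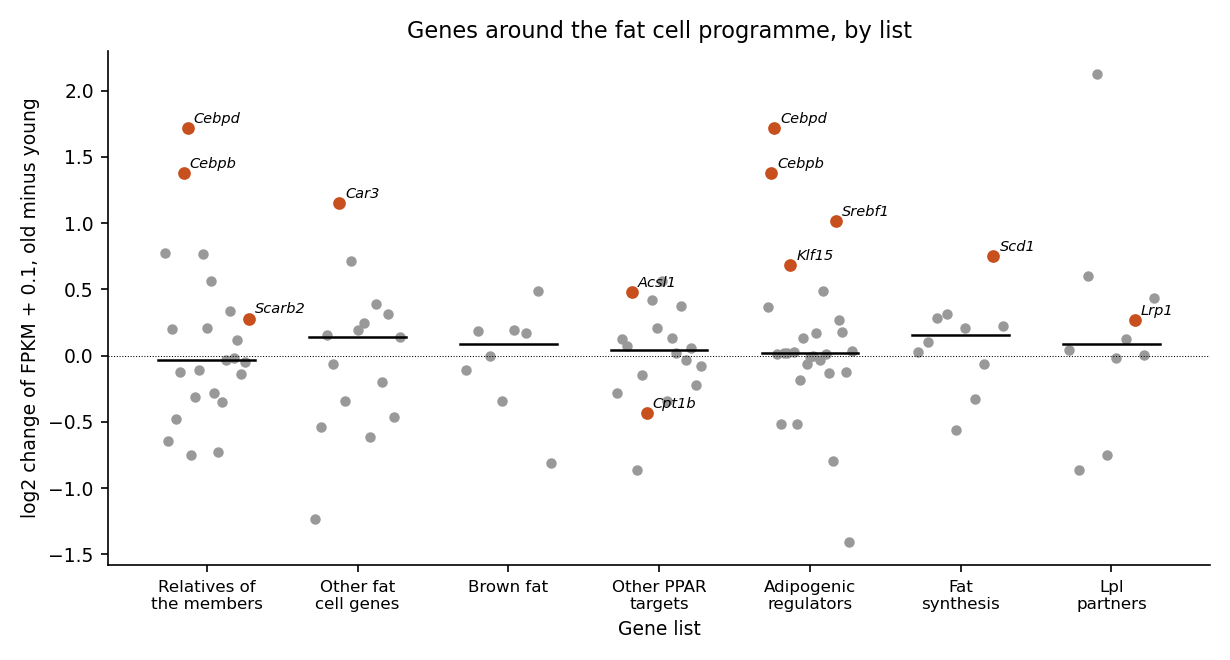
Log2 change of FPKM + 0.1, old minus young (y), of each tested gene in 7 lists around the fat cell programme (x); grey points did not pass the adjusted limma threshold, orange points did and are named, and lines are list medians. The medians lay between -0.03 and 0.16, close to 0, with single genes such as Cebpd (1.72) and Cpt1b (-0.43) away from them; Cebpb and Cebpd are in 2 lists.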

How the data were processed

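RNA of 3 young and 3 old cochlear samples had been sequenced by the authors from directional libraries as paired-end reads. The authors deposited FPKM per transcript and sample from Cuffdiff, with 56671 transcripts. The submitters' processing notes name CASAVA 1.8, TopHat2 2.0.9, Cufflinks 2.1.1, Cuffdiff 2.1.1 and GRCm38; the annotation release and the scaling between libraries are not given in the sources used here. Samples were grouped by the age in their labels.

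Transcripts were matched to GENCODE M21 and FPKM was summed per gene. Of 55679 Ensembl transcripts, 404 were not found and were left out. The 992 transcripts of the authors' own were kept, each as a gene of its own. They are counted among the 25419 genes and, where they passed the filter, among the genes tested and in the shares over all genes. Genes with a mean of at least 0.1 FPKM were compared with limma 3.58.1 in R 4.3.3 (lmFit, eBayes with trend) on log2(FPKM + 0.1), which understates changes of low genes, with Benjamini-Hochberg adjustment over all genes tested and a threshold of 0.05. For each member a two-sided exact permutation test (scipy 1.17.1) was added. Cuffdiff, the test of the study, needs reads, which were not used here. The code was tested on simulated data. Fragments per transcript were estimated from the FPKM worth of 1 fragment, found as the spacing of low values: 93.3 to 94.8% of those used lay within 0.1 of a whole multiple, with transcript lengths reduced by 260 to 300 nt. They and the limit of 3 fragments for a value of 0 cover counting error only. As the lengths are estimates and read sharing between transcripts gives parts of fragments, no count model was fitted.

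The rule for naming genes allowed all members, their relatives and, in each other list, up to 4 genes of at least 1 FPKM with the smallest p; not every gene it allowed is named. Arid5b, Lep, Lipe, Ucp1 and Elovl3 were named after their values were seen. The members and lists were chosen with earlier results of these data known. A gene of the lists was removed from them and is not reported here. Motifs were searched as exact letters on both strands. The alternatives were the pseudocount, the filter, the scaling, the variance trend, sample weights, a replicate block, each sample left out, and the most abundant transcript. Leaving out transcripts under 500 or 1000 nt was added after seeing the data. Python 3.11.15 and matplotlib 3.10.9 drew the figures.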

Additional observations from a re-analysis of the deposited data

How the results depend on the processing

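The number of members lower in old mice was 0 under all 18 alternatives. The number higher, 1 (Lpl), was 0 with no filter, without the variance trend, with a replicate block, with the most abundant transcript, and 0 to 0 with each sample left out; the log2 change of Lpl was between 0.60 and 0.93 in all 18, with limma adjusted p from 0.0228 to 0.145. Among other fat cell genes the number higher, 1 (Car3), was 0 to 1 with each sample left out. No pairing by replicate number was seen across genes, though 3 samples per age cannot exclude one. Deviations of same-numbered young and old samples correlated at 0.035, -0.094 and 0.041, and young 1 and young 2 correlated better with another number (0.081 and 0.072). With a replicate block the SE fell for Pparg, Plin4 and Cd36 (for Cd36 from 0.46 to 0.23). It rose for Cebpa, Fabp4, Cidec and Lpl. With the block the whole table gave 440 higher and 290 lower genes in place of 1099 and 741, and Lpl had a limma adjusted p of 0.0842.

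Leaving out samples or the variance trend moved the whole table too: 284 higher and 126 lower genes without the trend, 754 and 398 with no filter, and as few as 5 and 0 without old 1. The sample left out also lowers the number of samples. Directions turned for Pparg with transcripts of at least 500 nt (0.0195) or 1000 nt (0.46), for Cd36 with its most abundant transcript (-1.28), and for Fabp4 (-0.33) without young 1, young 3 or old 1, with a range of -1.50 to 0.69 over the samples left out in turn. Plin4 and Cebpa kept their direction in 18 of 18 and Cidec in 15 of 15, without a call, but not their size: Plin4 went from 0.38 to 0.13 without old 3, Cebpa from -0.26 to -0.15 without old 2, and Cidec from -0.85 to -2.08 with a pseudocount of 0.01 or -0.14 with 1. Cd36 with transcripts of at least 1000 nt was 1.26. Depth limits Adipoq, Plin1, Cidec and Cfd, each with under 10 fragments per age.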

Other observations

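The gene pattern closest to the fat-restricted members was sought with Cidec alone, as Adipoq, Plin1 and Cfd did not pass the filter. Cidec passed it only through its young samples, so that the filter itself favoured a pattern lower in old mice. Over the 6 samples, 0610010F05Rik and Slc25a51 (Pearson r = 0.996 each), Scpep1 (0.995), Xrcc2 (0.994), Kcnj2 (0.992), and Armc6, Exog and Taf12 (0.991 each) were the 8 most alike of 14980 genes with a mean of at least 1 FPKM. These r values are a description from 6 points that share an age difference, and Cidec itself rests on 3.01 fragments per sample at most. Slc25a51, for example, was at 55.3, 53.6 and 55.2 FPKM in young and 34.0, 42.6 and 48.2 FPKM in old samples.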
